A study of Mus musculus with 6 samples.

Results

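The genes described here encode cytokines that fibroblasts and other stromal cells make, with Il7 as the lead member. The set was given by name and function and holds 10 of them: the gp130 ligands Il6, Il11 and Lif, the lymphoid and type 2 cytokines Il7, Il15 and Tslp, the macrophage growth factors Csf1 and Il34, and Il33 with its receptor Il1rl1. They were chosen by name, and the only measured value in the rule is the mean level over all 6 arrays, by which 1 probe set is selected where a gene has several assigned to it alone. Each of 9 members had 1 such probe set, so this level decided nothing. Il1rl1 had none and was not analysed here. The 9 measured members stand among 19936 genes tested.

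Expression was measured on Affymetrix arrays in a Tet-off line of mouse embryonic fibroblasts (MEFs), a stable line in which a tetracycline-controlled transactivator can drive a transgene. Controls were 3 RNA samples from the line without transfection. They were compared with 3 RNA samples from HA-Fbxl10 cells, which are cells of that line given an HA-tagged Fbxl10 cDNA together with a hygromycin resistance plasmid and picked as clones that express it. Fbxl10, now named Kdm2b, encodes a JmjC-domain histone demethylase that also binds CpG-rich DNA. The samples are called independent RNA samples, without a statement on separate cultures or on the number of clones, so p-values cover the spread between samples alone, and this spread may be technical. Neither a mock-transfected nor a hygromycin-selected control was included. What transfection or clonal selection did and what Fbxl10 did cannot be told apart.

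Stromal cytokines tell neighbouring cells how many leukocytes a tissue should hold and in what state. IL-7 keeps lymphocyte precursors and naive T cells alive through a receptor made of Il7r and the common gamma chain, and TSLP shares Il7r, paired with Crlf2. IL-15 supports NK cells and memory T cells through Il2rb and the common gamma chain. IL-6, IL-11 and LIF each pair a receptor of their own with the signal transducer gp130, the product of Il6st, and act mainly through the kinase JAK1 and the transcription factor STAT3. CSF1 and IL-34 share the receptor Csf1r on macrophages, and IL-33 is a nuclear alarmin that signals after its release from damaged cells through Il1rl1 and Il1rap.

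Values are RMA expression values on the log2 scale, so a difference of 1 is a 2-fold change. They carry no detection calls. The lower quartile of all genes lay between 3.69 and 3.78 and the median between 5.29 and 5.41 over the arrays, and both serve below as marks of how dim a probe set was. Levels of different genes are not ranked against each other, since probe sets differ in how strongly they hybridise. Arrays of a group had Pearson correlations of 0.994 to 0.996 over all probe sets, and arrays of different groups had 0.99 to 0.992. The targeted gene Kdm2b went from 7.37 ± 0.08 (SD, n = 3) in control cells to 9.70 ± 0.10 (SD, n = 3) in HA-Fbxl10 cells. With 3 arrays a group, precision is limited by their number.

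In HA-Fbxl10 cells Il7 was 3.11-fold lower and Tslp 2.23-fold higher, so the pair of cytokines that share Il7r moved in opposite directions. Il34 was 1.53-fold lower. Il11 and Il33 were lower by smaller amounts at dim levels, and Il6, Il15, Lif and Csf1 did not pass the test. Of 9 measured members, 5 thus passed limma's test at an adjusted p of 0.05, with 4 lower and 1 higher. Over all genes 21.1% passed, 10.6% lower and 10.5% higher. Only 2 members passed as lower when replicate 1 or 3 of either group was left out, and 2 passed as higher without HA-Fbxl10 replicate 1. The arrays of the groups did not overlap for 7 of 9 members, against 36% of all genes. The median difference of the members was -0.13, beside -0.00 (log2) over all genes. In bulk RNA, fewer cells of a kind and less RNA per cell cannot be told apart. The members were put together with earlier results of these data known, so these counts describe the set and support nothing about it.

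**Figure D1:**
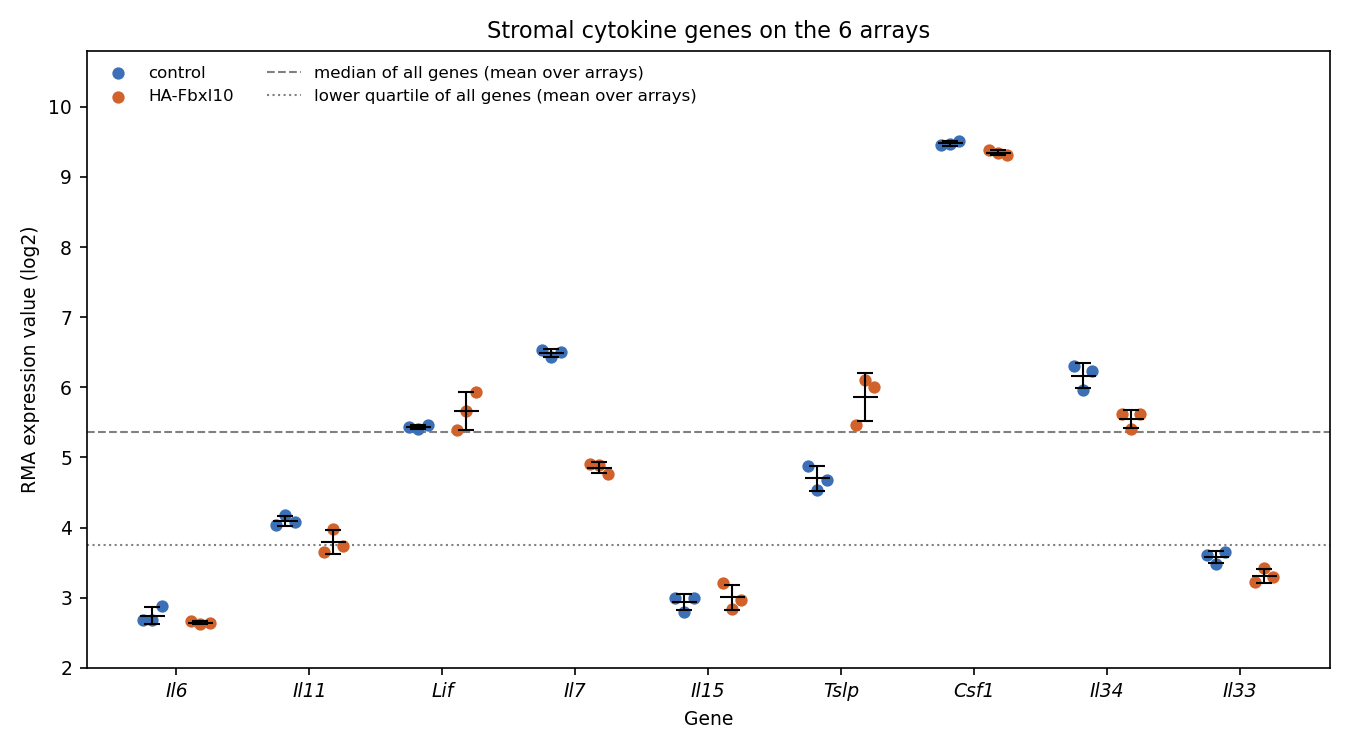
RMA expression values (log2, vertical axis) of the 9 measured cytokine genes (horizontal axis) on each array, control in blue and HA-Fbxl10 in orange, with the mean and SD of 3 arrays in black. Il7 sits at 6.43 to 6.54 in control cells and 4.77 to 4.91 in HA-Fbxl10 cells, Tslp runs the other way, and Il6, Il15 and Il33 lie under the dotted lower quartile of all genes on all 6 arrays.

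Il7 had log2 values of 6.54, 6.43 and 6.51 on the control arrays and of 4.91, 4.89 and 4.77 on the HA-Fbxl10 arrays. The gap between the groups was far wider than the spread within either one. Group means were 6.49 ± 0.06 for control and 4.85 ± 0.08 for HA-Fbxl10 cells (SD, n = 3 a group), a change of -1.64 ± 0.07 (SE) with a limma adjusted p of 9.69e-07. The 95% interval of the fall ran from 2.80-fold to 3.46-fold. All 3 control values lay above the median of all genes on their array and all 3 HA-Fbxl10 values lay below it. Only 32 of 19936 genes fell by more. The receptor chain gene Il7r lay below the lower quartile in both groups, at 2.91 in control cells and 2.91 in HA-Fbxl10 cells, with an interval of the difference from -0.15 to 0.15 (log2).

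Genes next to Il7 on chromosome 3 were lower too. Among the 18 expressed genes nearest to it (3 on the side of the chromosome's start, where no more were found, and 15 on the other), 11 were lower, 0 higher and 7 did not pass, and their median difference was -0.48 (log2), beside -0.23 for the 471 expressed genes of the chromosome. Expressed means above the median of all genes over the 6 arrays. The nearest genes on either side were Zc2hc1a, which fell by 0.58 ± 0.06 (SE), and Stmn2, a microtubule regulator of neurons, which fell by 0.70 ± 0.07 on the log2 scale. The next one after Stmn2, the Notch-responsive repressor gene Hey1, fell by 1.44 ± 0.13.

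A run of 5 genes followed Mrps28 in which none passed, from Tpd52 (-0.07) to Fabp5 (-0.03, both log2 differences). Farther along, Zfand1 fell by 0.96 ± 0.08 (SE), and 4 genes in a row fell by over 2-fold. Those were Lrrcc1 (-1.31), the cell cycle factor gene E2f5 (-1.15), Rbis (-1.11) and the carbonic anhydrase gene Car13 (-1.95, all log2 differences), and Car13 was the only one of the 18 that fell by more than Il7. These neighbours were named after their values were seen. When a running median of up to 31 expressed genes was removed, the difference of Il7 went from -1.64 to -1.08 (limma adjusted p = 2.03e-05), a move of over 1.5 times. For Il7 that median came from Il7 itself and its 18 neighbours, most of them on 1 side. The difference was -1.41 when only chromosome medians were removed. Whether the fall of Il7 and those of its neighbours have a common source was not tested.

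**Figure D2:**
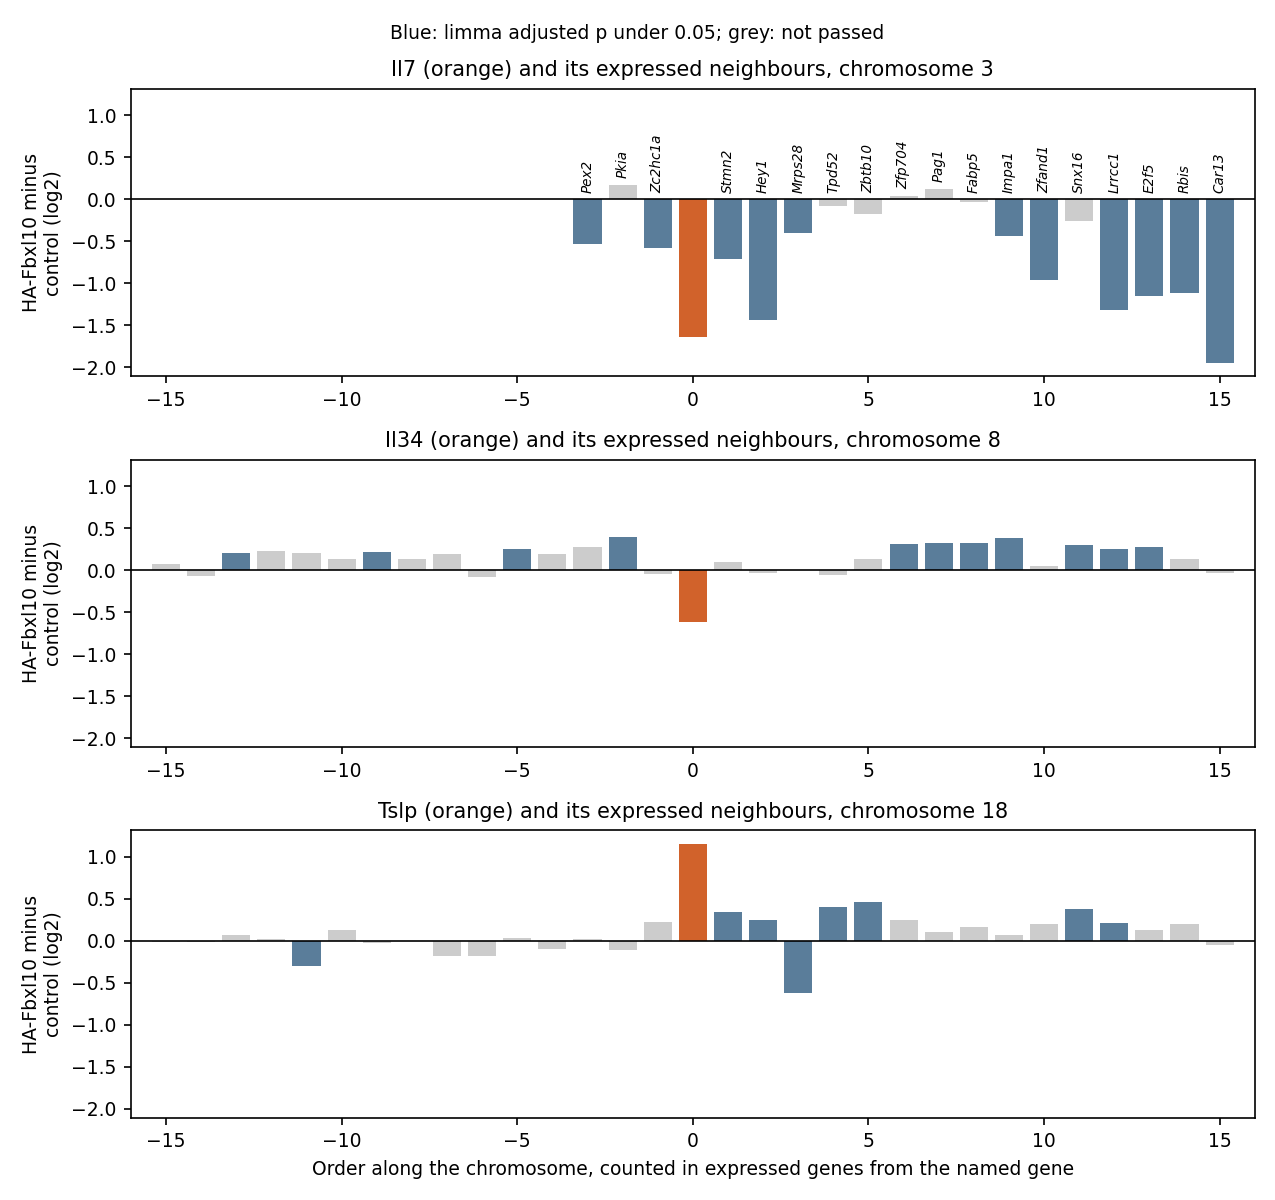
Difference between HA-Fbxl10 and control cells (log2, vertical axis) of Il7, Il34 and Tslp (orange bars at 0) and of up to 15 expressed genes on each side in chromosome order (horizontal axis, counted in genes), blue where limma's adjusted p was under 0.05 and grey otherwise. Il7 stands in a stretch where 11 of 18 genes were lower, whereas no neighbour of Il34 passed as lower and no neighbour of Tslp changed as much as Tslp did.

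By a rule that took the smallest root mean square difference over the 6 arrays from the profile of Il7, with each gene set to its own control mean, 5 of 9967 other expressed genes were picked as most alike. They were the carbonyl reductase gene Cbr2 (0.0795), Tmem176a (0.0881), the carboxypeptidase inhibitor gene Lxn (0.0881), the thioredoxin-binding protein gene Txnip (0.106) and the secreted lectin gene Clec11a (0.106, all root mean square differences in log2 units). The rule picks genes that fell by a like amount. Their differences ran from -1.71 for Cbr2 to -1.52 for Tmem176a (log2). Lxn and Txnip also lie on chromosome 3, but not among the 18 neighbours of Il7. The 471 expressed genes of that chromosome had a median difference of -0.23 (log2), and a common source of these falls was not tested.

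Tslp, best known as an alarm signal of epithelia to dendritic cells and type 2 lymphoid cells, had values of 4.88, 4.54 and 4.68 in control cells and of 5.47, 6.10 and 6.01 in HA-Fbxl10 cells. Every HA-Fbxl10 array was above every control array, with replicate 1 the lowest of its group. The mean rose from 4.70 ± 0.17 to 5.86 ± 0.34 (SD, n = 3 a group), by 1.16 ± 0.16 (SE) with a limma adjusted p of 0.000808. The interval of the rise, 1.75-fold to 2.85-fold, was the widest of the members, as the spread in HA-Fbxl10 cells was the largest. Tslp went from below the median of all genes on the 3 control arrays to above it on the 3 HA-Fbxl10 arrays, and 45 genes rose by more.

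The expressed genes around Tslp on chromosome 18 had a median difference of 0.07 (log2), with 6 of 30 higher and 2 lower. The 6 higher ones all lay on the side away from the chromosome's start. Nearest to Tslp among them were Wdr36 (0.35), Stard4 (0.25), Epb41l4a (0.40) and Gm10548 (0.47), with the lower Nrep (-0.62, all log2 differences) in between. The rise of Tslp stayed at 1.09 with the running median removed. Crlf2, which encodes the receptor chain that binds TSLP, had a level of 6.65 in control cells and 6.57 in HA-Fbxl10 cells and did not pass the test (interval of the difference -0.30 to 0.14, log2). Among 10 epithelial markers, 1 rose, the keratin gene Krt19, by 0.71 ± 0.08 (SE, log2), and 0 fell. The summed linear level of these markers ran from 751 to 846 in control cells and from 1112 to 1168 in HA-Fbxl10 cells. Krt19 carries that difference: the other 9 summed to 266 to 277 in control cells and 242 to 272 in HA-Fbxl10 cells. In level, 3 of the 10 lay above the median of all genes. Those were Krt19, Krt8 (6.39 in control and 6.24 in HA-Fbxl10 cells) and Cldn4 (5.61 and 5.50). Epcam lay below the lower quartile of all genes at 3.26 in control cells and 3.26 in HA-Fbxl10 cells, and Cdh1 lay below the median at 4.82 and 4.80.

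The other cytokine of this group, Il15, lay below the lower quartile of all genes on all 6 arrays. Its values ran from 2.80 to 3.00 in control cells and from 2.84 to 3.20 in HA-Fbxl10 cells, so the groups overlapped. The difference was 0.07 with an interval from -0.16 to 0.30 (log2, limma adjusted p = 0.723). Without HA-Fbxl10 replicate 1 its sign turned, to -0.03. Il15ra, which presents IL-15 to neighbouring cells, had an interval from -0.02 to 0.38 and did not pass.

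Of the genes for the ligands of the macrophage receptor Csf1r, Il34 passed as lower and Csf1 did not pass. Il34 had values of 6.30, 5.97 and 6.23 in control cells and of 5.62, 5.40 and 5.62 in HA-Fbxl10 cells, and the groups did not overlap. Control cells had a mean of 6.17 ± 0.18 and HA-Fbxl10 cells one of 5.55 ± 0.13 (SD, n = 3 a group), a change of -0.62 ± 0.10 (SE) with a limma adjusted p of 0.00216 and a fall of 1.31-fold to 1.80-fold over the 95% interval. All 6 values lay above the median of all genes on their array. Of its 30 expressed neighbours on chromosome 8, 11 were higher and 0 lower, and the fall was -0.76 with the running median removed.

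Csf1, the other ligand gene, was bright on every array. Its values were 9.45, 9.47 and 9.52 in control cells and 9.38, 9.34 and 9.32 in HA-Fbxl10 cells. The groups did not overlap, but the difference of -0.13 ± 0.06 (SE) did not pass the test (limma adjusted p = 0.184). Its interval from -0.27 to 0.01 (log2) holds no change in either direction of over 1.20-fold. Csf1 also lies on chromosome 3, and its sign turned, to 0.10, when chromosome medians were removed. Csf1r itself had a level of 3.90 in control cells and 3.83 in HA-Fbxl10 cells. Among 13 macrophage markers, Csf1r included, 1 fell, Cd14 by 0.45 ± 0.13 (SE, log2), and 0 rose. Cd14 did not pass without replicate 1 or 3 of either group (limma adjusted p of 0.085 to 0.119). Their summed linear level ran from 242 to 254 in control cells and from 231 to 239 in HA-Fbxl10 cells, and without Cd14 from 183 to 184 and from 180 to 192.

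**Figure D3:**
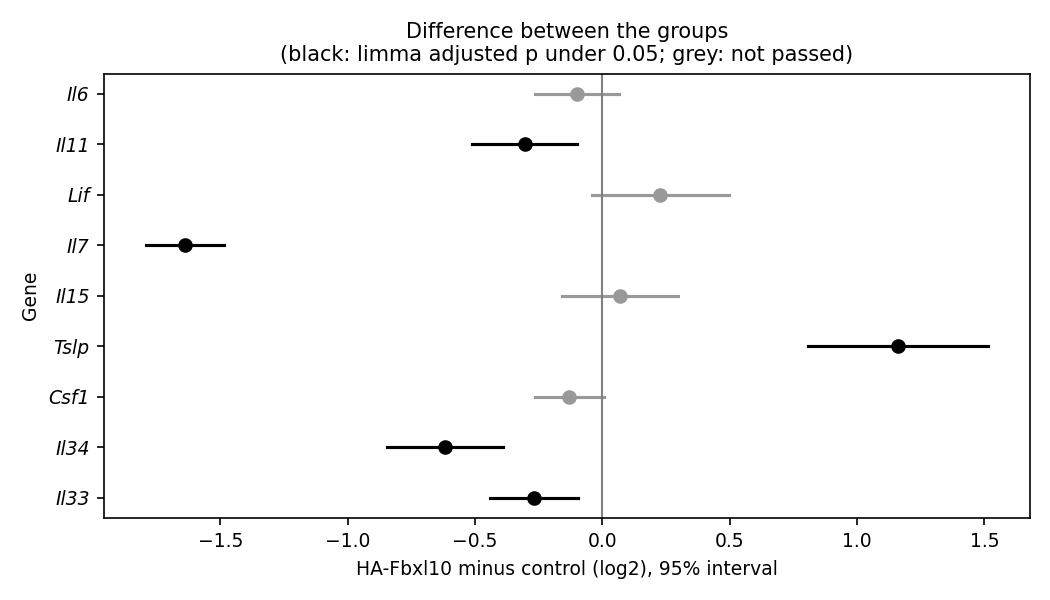
Difference between HA-Fbxl10 and control cells (log2, horizontal axis) with its 95% interval for each of the 9 measured cytokine genes (vertical axis), 3 arrays a group, black where limma's adjusted p was under 0.05 and grey otherwise. Il7 at -1.64 and Tslp at 1.16 lie farthest from 0, and the intervals of Il11 and Il33 end close to 0.

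Of the genes for gp130 ligands, Il11 passed as lower, and Il6 and Lif did not pass. Il11, a cytokine tied to fibroblast activation, had values of 4.04, 4.17 and 4.07 in control cells and of 3.65, 3.99 and 3.74 in HA-Fbxl10 cells, below the median of all genes on every array. The difference of -0.31 ± 0.09 (SE) passed narrowly (limma adjusted p = 0.0414). The call ended without any 1 array other than HA-Fbxl10 replicate 2 (adjusted p of 0.0697 to 0.145), so it rests on each of those others. Leaving out that replicate gave -0.40 (adjusted p = 0.00904).

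Lif, which supports stem cells and neurons, had values of 5.43, 5.41 and 5.46 in control cells and of 5.39, 5.67 and 5.94 in HA-Fbxl10 cells. The control arrays were tightly together and the HA-Fbxl10 arrays were spread, with replicate 1 below all controls. The difference of 0.23 ± 0.12 (SE) did not pass (limma adjusted p = 0.24), with an interval from -0.04 to 0.50. Without HA-Fbxl10 replicate 1 it was 0.37 and passed (adjusted p = 0.0328), and without replicate 3 it was 0.09. Il6, the best known inflammatory cytokine of fibroblasts, lay between 2.63 and 2.88 on all 6 arrays, below the lower quartile of all genes on each. The difference was -0.10 ± 0.07 (SE, limma adjusted p = 0.412), and values this low do not tell signal from background.

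Il33 also lay below the lower quartile of all genes on all 6 arrays. It had values of 3.61, 3.48 and 3.65 in control cells and of 3.23, 3.43 and 3.29 in HA-Fbxl10 cells, which do not overlap. The difference of -0.27 ± 0.08 (SE) passed narrowly (limma adjusted p = 0.0355), and of the 4984 dimmest genes 1.8% passed. Leaving out replicate 1 or replicate 3 of either group ended the call (adjusted p of 0.0972 to 0.128). The gene for the accessory chain of its receptor, Il1rap, rose from 6.46 to 6.91, by 0.45 ± 0.11 (SE, limma adjusted p = 0.0184). That call ended without control replicate 2, HA-Fbxl10 replicate 1 or HA-Fbxl10 replicate 2 (adjusted p of 0.0509 to 0.0672), and the rise was 0.24 (adjusted p = 0.155) with the running median removed.

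Across the receptors of these cytokines, 2 of 11 measured genes rose, 0 fell and 9 did not pass, and their median difference was 0.11 (log2). Of all genes 10.5% were higher and 10.6% lower. Besides Il1rap the one that rose was Sdc1, a cell surface proteoglycan that can bind IL-34, by 0.41 ± 0.07 (SE, limma adjusted p = 0.00304). The gp130 gene Il6st was bright, at 10.28 in control cells and 10.43 in HA-Fbxl10 cells, and Lifr was at 8.06 and 8.17. Neither passed. Il2rb, Il7r and Ptprz1 were below the lower quartile of all genes in both groups, and Il2rg and Il11ra1 were not analysed here.

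Among 24 JAK-STAT genes and inhibitors, 7 fell, 3 rose and 14 did not pass, with a median of -0.16 (log2). Over all genes 21.1% passed, with 10.6% lower and 10.5% higher. In level, 21 of the 24 lay above the median of all genes. Between that median and the upper quartile 34.3% of all genes passed, and above the upper quartile 39.7%. The count is therefore not read as a change of the pathway. Only 4 fell without control replicate 3, without HA-Fbxl10 replicate 3 or with array medians subtracted, and 3 fell and 1 rose with the running median removed. The inhibitor gene Pias1 rose by 0.60 ± 0.09 (SE), while the kinase gene Tyk2 fell by 0.51 ± 0.10 and Stat2 fell by 0.38 ± 0.08 on the log2 scale. Stat3, which carries the signal of gp130, fell by 0.36 ± 0.07, and its feedback inhibitor gene Socs3 fell by 0.32 ± 0.07, both named after their values were seen. The calls of Stat2, Stat3 and Socs3 ended with the running median removed (limma adjusted p of 0.0725, 0.121 and 0.17), and that of Socs3 also when its probe sets were averaged (0.0616). Of 16 genes known as targets of gp130 and STAT3, 2 rose, 1 fell and 13 did not pass. The repressor gene Bcl6 rose by 0.51 ± 0.08 and the kinase gene Pim1 by 0.30 ± 0.06, and the AP-1 gene Junb fell by 0.35 ± 0.08. Junb did not pass once control replicate 2 or HA-Fbxl10 replicate 1 was left out (limma adjusted p of 0.0568 and 0.0553), and 2 targets fell without HA-Fbxl10 replicate 3.

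Of 12 genes of IL-1 receptor signalling, which IL-33 also uses, 4 fell, 1 rose and 7 did not pass, and 2 fell without HA-Fbxl10 replicate 1 or 3. In level, 8 of the 12 lay above the median of all genes. Over all genes 10.6% fell and 10.5% rose. With array medians subtracted or chromosome medians removed 2 fell, and with the running median removed 1 did. The inhibitory adaptor gene Tollip rose by 0.58 ± 0.07 (SE), and the kinase genes Irak2 and Irak1 fell by 0.36 ± 0.08 and 0.31 ± 0.07 on the log2 scale. With the running median removed Irak2 was at -0.05 and Irak1 at -0.15, and neither passed. Irak1 also lost its call without control replicate 1 or HA-Fbxl10 replicate 3 (limma adjusted p of 0.0502 and 0.052).

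Most other cytokine genes of the same kind did not pass. Of 15 other stromal and inflammatory cytokine genes, 2 fell, 0 rose and 13 did not pass. Over all genes 10.6% were lower and 10.5% higher. In level, 3 of the 15 lay above the median of all genes and 5 below the lower quartile. Of all genes below that quartile 1.8% passed, and of those between it and the median 8.6%. Most of the 15 were thus at levels where few genes pass, and not passing does not show that they were unchanged. An unadjusted limma p under 0.05 was found for 6 of the 15 and for 6245 of all 19936 genes. The 2 that fell were Il1rn and Il18 of the IL-1 family, and no other gene of that family in this list passed. The antagonist gene Il1rn fell from 5.40 to 4.82, by 0.57 ± 0.08 (SE, log2). Il18 fell from 3.82 to 3.04, by 0.78 ± 0.13 (SE, log2), with its HA-Fbxl10 mean below the lower quartile of all genes. Its control values of 3.95, 3.47 and 4.04 lay near that quartile, with replicate 2 below it, so the size of this fall is uncertain. Of 8 other ligands of the gp130 and IL-12 families limma called 0 at an adjusted p of 0.05, with 1 at an unadjusted p under 0.05, and it called 1 without control replicate 1. Their median was 0.05 (log2), and 2 of the 8 lay above the median of all genes in level.

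**Figure D4:**
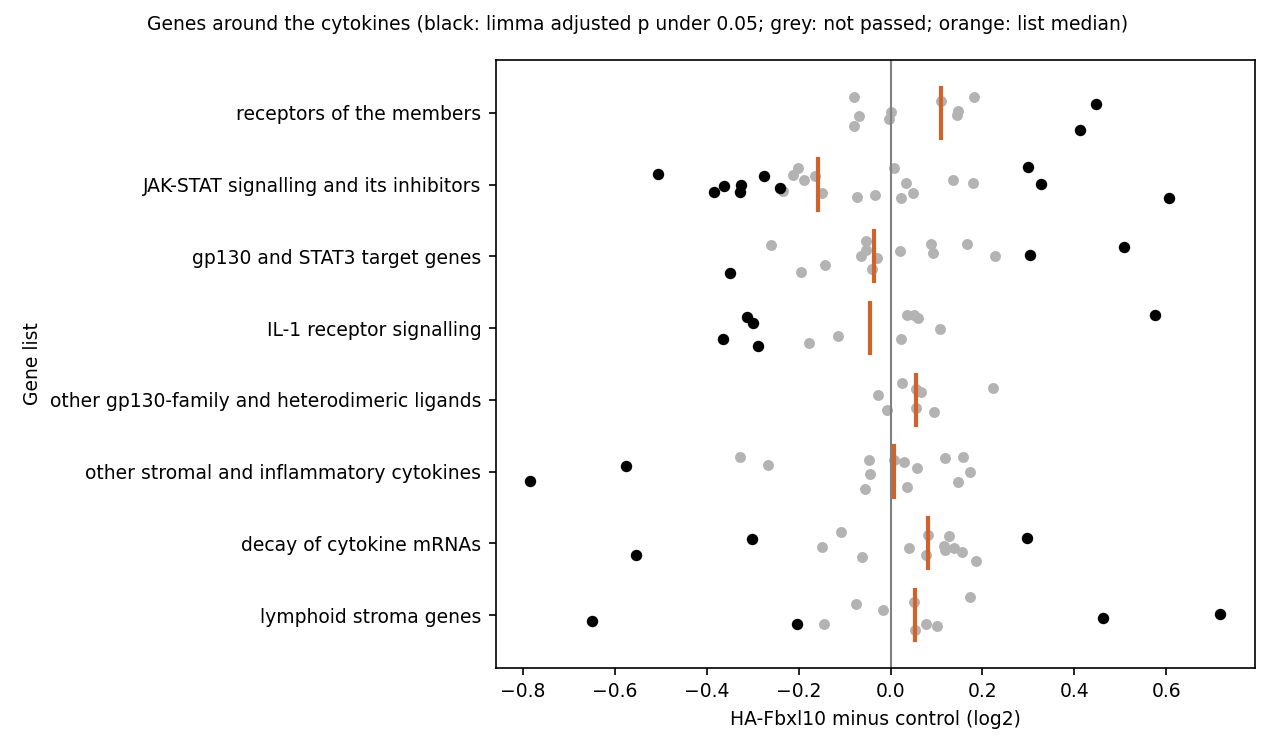
Difference between HA-Fbxl10 and control cells (log2, horizontal axis) of each measured gene in 8 lists around the cytokines (vertical axis, points spread within a row for clarity), black where limma's adjusted p was under 0.05, with the list median as an orange line. List medians lie between -0.16 and 0.11, and genes that passed lie on both sides of 0 in 5 of the 8 lists.

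Regulators of cytokine mRNA and genes of lymphoid stroma went both ways. For comparison with both lists, 10.6% of all genes fell and 10.5% rose. Of 15 genes that govern the decay of such mRNAs, 2 fell, 1 rose and 12 did not pass, and 2 rose without control replicate 3. Zfp36l1, a binder of AU-rich elements, fell by 0.55 ± 0.07 (SE), Tia1 fell by 0.30 ± 0.07 and the deadenylase gene Cnot7 rose by 0.30 ± 0.07 on the log2 scale. With the running median removed Tia1 was at -0.06 and Cnot7 at 0.12, and neither passed. Without HA-Fbxl10 replicate 3 the limma adjusted p of Tia1 was 0.0515. Of 12 genes typical of the stroma that makes IL-7 in lymphoid organs and marrow, 2 rose, 2 fell and 8 did not pass, and 1 fell when any 1 array was left out. The transcription factor gene Ebf1 rose by 0.72 ± 0.07 and the membrane glycoprotein gene Pdpn by 0.46 ± 0.06, while the chemokine gene Cxcl12 fell by 0.65 ± 0.07. The difference of Cxcl12 was -0.37 with the running median removed and still passed.

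Fibroblast markers were bright in part. Of 13 fibroblast markers 10 were above the median of all genes, with Col1a1, Col1a2 and Vim above 12 in both groups, while Thy1 and Dcn were below the median and Lum below the lower quartile. Col3a1 (-0.79), Prrx1 (-0.49) and Pdgfra (-0.30, all log2 differences) fell, 0 rose and 10 did not pass. The median difference of the 13 was -0.05 (log2). Their summed linear level ran from 24287 to 25678 in control cells and from 22734 to 24335 in HA-Fbxl10 cells, so the groups overlapped. Pdgfra did not pass once control replicate 1, control replicate 3, HA-Fbxl10 replicate 1 or HA-Fbxl10 replicate 2 was left out (limma adjusted p of 0.0703 to 0.0977). Of 9 endothelial markers 1 rose, Kdr, by 0.51 ± 0.09 (SE, log2), and 0 fell. Kdr lay below the median of all genes in both groups, at 3.69 in control cells and 4.21 in HA-Fbxl10 cells. None of 9 lymphocyte markers was above the median. Of 10 markers of mast cells and type 2 lymphoid cells, which respond to IL-33 and TSLP, only Gata3 was above it, and it fell by 0.61 ± 0.13 (SE, log2). The summed linear level of that list ran from 190 to 217 in control cells and from 166 to 174 in HA-Fbxl10 cells. Gata3 carries that difference too, as the other 9 summed to 118 to 119 in control cells and 116 to 119 in HA-Fbxl10 cells.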

How the data were processed

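RNA of 3 control and 3 HA-Fbxl10 samples was hybridised to Affymetrix arrays. Values are on the log2 scale, 1 per probe set, and the authors derived them by RMA according to the submitters' processing notes (background correction, quantile normalisation between arrays, a summary of probes). For RMA, the version and settings were not given in the sources used here. RMA hides a shift common to most genes and compresses low values. No batch is named in the labels, so none was tested.

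The platform annotation gives 1 gene for 21789 of 35556 probe sets, several for 1621 and none here for 12146. Names come from the RefSeq table of assembly GRCm38.p6, matched through the Entrez identifier (21698) or an accession (3), and 88 probe sets kept the annotation's name. That table also gave chromosomes and gene order, as the files name no build. The highest-mean probe set of each gene entered, with no filter on dim genes.

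The fit used lmFit and eBayes of limma 3.58.1 (R 4.3.3), was two-sided, and adjusted p by Benjamini-Hochberg over all genes with a threshold of 0.05. Differences are HA-Fbxl10 minus control, with moderated standard errors and 95% intervals. Neighbours are up to 15 expressed genes on each side in gene order. The rule for names took the members, Kdm2b, the 3 largest changes past the threshold in each list, every receptor past it and the 5 profiles nearest to that of Il7. Neighbours of Il7, markers and genes marked so were picked with their values in view. The members and the lists (124 entries in 8 lists, 113 measured) were chosen with earlier results of these data known. Other settings were a further quantile normalisation, centring on array medians, a filter on the dimmest 30%, the mean of a gene's probe sets, a fit of every probe set, trended variances (also robust), array weights, a block for the replicate number, each array left out, a threshold of 0.01, and chromosome medians or a running median of 31 expressed genes removed. Near chromosome ends the running median held fewer genes. Figures used matplotlib 3.10.9.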

Additional observations from a re-analysis of the deposited data

How the results depend on the processing

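Il7, Tslp and Il34 kept their direction and their call under all 18 alternatives, with log2 differences of -1.67 to -1.08, 1.04 to 1.36 and -0.76 to -0.54. The call of Il11 ended with quantile normalisation again (-0.29), array medians subtracted (-0.25), an adjusted p of 0.01 or every probe set fitted (both -0.31), and its values without single arrays ran from -0.40 to -0.24. That of Il33 ended with quantile normalisation again (-0.26), array medians subtracted (-0.21), chromosome medians removed (-0.15), and, at -0.27, with the replicate block (adjusted p = 0.0892), an adjusted p of 0.01 or every probe set fitted. Without single arrays it ran from -0.32 to -0.23. Il6 passed with the running median (-0.29) or chromosome medians (-0.27) removed. Il15 turned its sign in the same settings (-0.17 and -0.055) and ran from -0.0318 to 0.15 without single arrays. Csf1 went to 0.10 with chromosome medians removed, and Lif ran from 0.0903 to 0.37 without single arrays. The count of members lower was 2 with quantile normalisation again, array medians subtracted, the dimmest genes left out (which drops 4 members), an adjusted p of 0.01 or every probe set fitted, and 2 to 4 without single arrays, while the count higher was 1 to 2. Over all genes 2536 passed an adjusted p of 0.01, 1227 higher and 1309 lower. Array median subtraction gave 2650 genes higher and 1560 lower, against 2097 and 2111. Over the 8 lists together 18 genes were lower, against 11 with array medians subtracted and 9 at an adjusted p of 0.01. Of the JAK-STAT genes 4 were lower at an adjusted p of 0.01 or with every probe set fitted, and of the IL-1 signalling genes 1 was at 0.01. Of the mRNA decay genes 1 was lower with array medians subtracted, and 1 lower and 0 higher with chromosome medians or the running median removed. Of the lymphoid stroma genes 1 was lower with array or chromosome medians removed. Of the other gp130 and IL-12 family ligands 1 was higher with array medians subtracted and 2 with the running median removed. Deviations from the group mean had correlations of 0.085, -0.283 and -0.093 between same-numbered arrays. Between arrays of unlike number the correlations ran from -0.224 to 0.281. With 3 arrays a group, such values cannot tell whether same-numbered arrays were handled together. With the replicate block 3397 genes passed instead of 4208. Of 41 other genes named, 28 kept their call under every alternative run for them and 0 reversed. Median subtraction moved the median of all genes to 0.05 (log2).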
